A study of Arabidopsis thaliana with 9 samples.

Results

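Apical hooks of 2 auxin-signalling mutants of Arabidopsis thaliana were compared with each other. The comparison rests on 6 RNA-seq libraries of the 9 in the series: 3 of the mutant tmk1-1, called tmk1 here, and 3 of the double mutant iaa32iaa34. The other 3 libraries, of the parent line Col-0 (WT), give the level of a gene in unmutated hooks and entered 1 alternative fit only, to share its estimate of spread. All libraries came from hooks of dark-grown seedlings aged 45 h at 22 °C. About 50 hook pieces of about 2 mm, with the cotyledons cut away, were pooled for each, so a library describes a pool and not a plant. The labels call the samples biological triplicates and give neither the kind of lesion in the mutants nor the number of lines behind them. All 16289 genes with at least 1 CPM (read counts scaled to 1 common library total) in at least 3 of the 6 libraries were tested, out of 16383 in the deposited table.

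The apical hook is the bent upper stem that shields the shoot tip while a seedling grows through soil. It forms because auxin collects on the inner side of the bend and holds back cell elongation there. The kinase TMK1 sits in the plasma membrane, has the build of a receptor, and takes part in auxin responses. IAA32 and IAA34 belong to the Aux/IAA family of transcriptional repressors, but they lack the degron through which the auxin receptors of the nucleus mark typical members for breakdown. In the known hook pathway the kinase part of TMK1 is released in response to auxin and acts on IAA32 and IAA34, so the mutants affect different steps of it. Setting the mutants against each other asks which transcripts differ between hooks of the kinase mutant and hooks of the repressor double mutant.

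Only 3 of the 16289 genes, or 0.0184%, passed the test for a difference between tmk1 and iaa32iaa34 hooks. The test was limma on log2(CPM + 1), two-sided, with a Benjamini-Hochberg adjusted p under 0.05. A gene that did not pass was not shown to be equal in the mutants. The 95% interval reached a median of 0.44 to either side of the log2 fold change. AT5G35935, or 0.00614% of the genes tested, was higher in tmk1, and TMK1 and AT5G65660, or 0.0123%, were lower. At an unadjusted p under 0.05 there were 1281 genes (7.86%), of which 663 (4.07%) were higher in tmk1 and 618 (3.79%) lower. The 3 libraries of one mutant lay apart from the 3 of the other in 2160 genes (13.3%), with 1158 (7.11%) higher in tmk1 and 1002 (6.15%) lower. With no difference, the groups of a gene would lie apart with probability 0.1, the smallest exact permutation p of 3 against 3. Levels of most genes were close: the median absolute log2 fold change was 0.16, the 5th percentile of the signed values was -0.47 and the 95th was 0.46. The log2 fold change was above 0 for 52.2% of genes. Its 95% interval stayed inside a 2-fold change either way for 14252 genes, or 87.5%. An absolute log2 fold change of at least 1 was found for 152 genes (0.933%). Among these, 41 genes (0.252%) had all tmk1 libraries above all iaa32iaa34 libraries, and 51 (0.313%) had them all below.

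**Figure D1:**
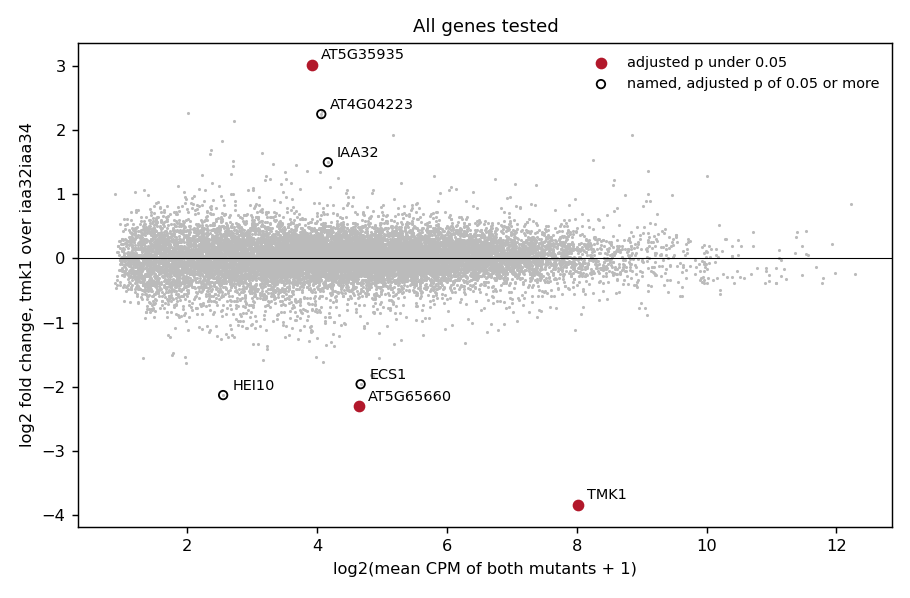
Each point is 1 of the 16289 genes tested, placed by the log2 of its mean CPM in the 6 mutant libraries plus 1 (horizontal axis) and by its log2 fold change, tmk1 over iaa32iaa34 (vertical axis). Red points are the 3 genes with an adjusted p under 0.05, from 3.02 for AT5G35935 to -3.84 for TMK1, and open circles are named genes that did not pass.

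TMK1 (AT1G66150) had 45.4, 29.0 and 26.8 CPM in the tmk1 libraries and 477, 463 and 514 CPM in the iaa32iaa34 libraries. WT hooks had 387, 468 and 469 CPM, so the iaa32iaa34 libraries lay at the top of the WT range or above it and all tmk1 libraries lay far below. Its mean was 33.7 ± 10.1 CPM in tmk1 and 485 ± 26.0 CPM in iaa32iaa34 (SD, n = 3 each), a ratio of 0.0696. The log2 fold change was -3.84 ± 0.20 (SE), with a 95% interval of -4.31 to -3.38 (limma, adjusted p = 3.13e-04). At least 292 reads stood behind each library's value. The residual reads were not resolved by position here, so whether they came from a whole transcript was not tested.

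IAA32 (AT2G01200), the repressor gene named by the other genotype, had 22.3, 25.4 and 28.5 CPM in tmk1 and 6.44, 10.5 and 8.48 CPM in iaa32iaa34. WT hooks had 55.3, 43.0 and 50.9 CPM. The 3 groups did not overlap, with the lowest levels in iaa32iaa34 and those of tmk1 between them and WT. Its mean was 25.4 ± 3.1 CPM in tmk1 and 8.46 ± 2.01 CPM in iaa32iaa34 (SD, n = 3 each), and the log2 fold change was 1.5 ± 0.20 with a 95% interval of 1.05 to 1.95. The adjusted p of 0.086 (limma) did not pass the threshold. It passed under 2 of 16 other settings, which were the fit over all 9 libraries and the fit with library weights. IAA32 overlaps AT2G01210 in the reference annotation, and it is not known whether reads were counted by strand, so part of its reads may belong to that neighbour. AT2G01210 itself had 7.47, 9.13 and 8.53 CPM in tmk1 and 5.87, 6.65 and 4.54 CPM in iaa32iaa34. IAA34 was not analysed here.

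AT5G65660, annotated as a gene of the hydroxyproline-rich glycoprotein family, was the other gene that fell in tmk1. Its levels were 6.61, 8.63 and 6.84 CPM in tmk1 and 33.5, 51.6 and 37.1 CPM in iaa32iaa34. WT hooks had 40.3, 43.7 and 45.3 CPM, so iaa32iaa34 and WT overlapped and tmk1 stood alone at the low end. The mean was 7.36 ± 1.11 CPM in tmk1 and 40.7 ± 9.58 CPM in iaa32iaa34 (SD, n = 3 each). The log2 fold change was -2.30 ± 0.20, with an interval of -2.76 to -1.85 (limma, adjusted p = 0.00643). It passed under 15 of 16 other settings and missed the threshold without iaa32iaa34 replicate 3 (limma, adjusted p = 0.0775).

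AT5G35935, annotated as a pseudogene whose product is uncharacterized, was the only gene that passed in the other direction. It had 27.3, 24.3 and 25.7 CPM in tmk1 and 2.46, 2.93 and 1.63 CPM in iaa32iaa34. WT hooks had 39.5, 28.5 and 29.4 CPM, so here iaa32iaa34 stood alone at the low end and all tmk1 libraries lay slightly below WT. The mean was 25.8 ± 1.49 CPM in tmk1 and 2.34 ± 0.658 CPM in iaa32iaa34 (SD, n = 3 each), a ratio of 11. The log2 fold change was 3.02 ± 0.19, with an interval of 2.58 to 3.46 (limma, adjusted p = 7.45e-04). Reads of a pseudogene may be shared with other copies, and how the authors' counting divided such reads is not given in the sources used here. TMK1 and AT5G35935 passed under all 16 other settings tried.

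**Figure D2:**
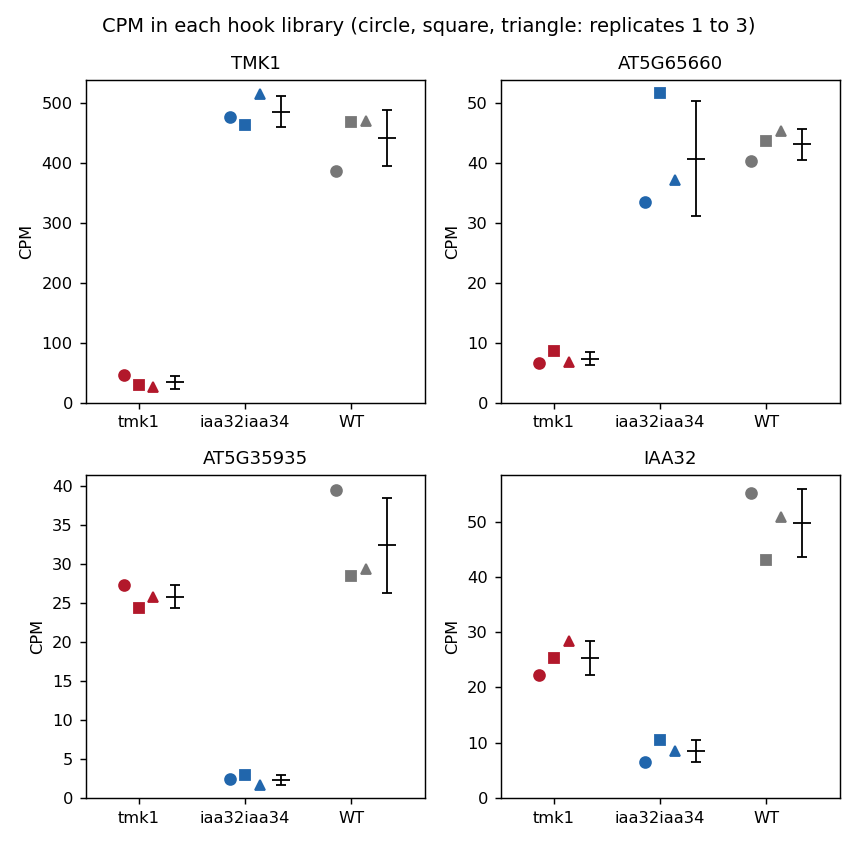
CPM (vertical axes, linear and starting at 0) of TMK1, AT5G65660, AT5G35935 and IAA32 in each library of tmk1, iaa32iaa34 and WT hooks; bars beside the points are the mean and SD of 3 libraries. TMK1 and AT5G65660 are low in tmk1 alone, AT5G35935 is low in iaa32iaa34 alone, and the 3 groups of IAA32 lie apart.

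The tested neighbours of the mutated genes were examined, since mutant lines can differ in DNA linked to the mutated locus. None of the 8 tested genes among the 10 on each side of TMK1 passed, and their log2 fold changes ran from -0.29 to 0.32. Of the 10 tested around IAA32 none passed, with a range of -0.19 to 0.50, whose upper end was AT2G01210 (limma, adjusted p = 0.594). Of the 11 tested around the locus of IAA34 none passed, with a range of -0.42 to 0.48. At an unadjusted p under 0.05 there were 0 genes around TMK1 and 1 around each of the other loci, the second being QSOX1 near IAA34, at 25.0 CPM in tmk1 and 18.5 CPM in iaa32iaa34. By chromosome, genes with an unadjusted p under 0.05 made up 7.17% (chromosome 5) to 8.82% (chromosome 4) of those tested, close to the 7.86% of all genes.

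Beyond the genes that passed, those with the smallest p-values are given as values only. On the side higher in tmk1, AT4G04223, annotated as a non-coding RNA, had 29.8, 15.9 and 34.8 CPM in tmk1 and 4.07, 3.99 and 5.83 CPM in iaa32iaa34. WT hooks had 5.73, 3.65 and 5.21 CPM, so tmk1 stood alone at the high end. Its log2 fold change was 2.25 ± 0.28 (limma, adjusted p = 0.0851). SULTR2;1, a sulfate transporter of vascular tissue, had 85.2, 76.7 and 74.3 CPM in tmk1 and 40.2, 40.2 and 34.6 CPM in iaa32iaa34. WT lay between the mutants at 54.1, 55.6 and 67.8 CPM. The log2 fold change of SULTR2;1 was 1.02 ± 0.14 (limma, adjusted p = 0.101). AT2G43445, an F-box protein gene, had 11.8, 13.3 and 12.6 CPM in tmk1 and 5.49, 4.17 and 4.63 CPM in iaa32iaa34, with 4.90 ± 1.46 CPM in WT (SD, n = 3).

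PORA, the protochlorophyllide oxidoreductase that builds up in darkness, had 239, 208 and 226 CPM in tmk1 and 74.1, 137 and 102 CPM in iaa32iaa34. The WT libraries of PORA were spread over both ranges, at 183, 256 and 82.4 CPM. FSD1, the iron superoxide dismutase of plastids, averaged 534 ± 103 CPM in tmk1 and 229 ± 44.5 CPM in iaa32iaa34 (SD, n = 3 each). CPN60B, a subunit of the chloroplast chaperonin, averaged 329 ± 19.9 CPM in tmk1 and 174 ± 36.9 CPM in iaa32iaa34. UPM1, the methylase that starts siroheme synthesis, averaged 86.5 ± 5.06 CPM in tmk1 and 42.1 ± 12.8 CPM in iaa32iaa34. RBCS2B, a small subunit of Rubisco and a member of a family of near-identical genes, averaged 692 ± 60.4 CPM in tmk1 and 373 ± 54.9 CPM in iaa32iaa34. The adjusted p of these 5 genes was 0.202 to 0.266 (limma).

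The other genes named on this side were of several families. TGG2, a myrosinase that cleaves glucosinolates, had 18.3, 18.1 and 16.2 CPM in tmk1 and 9.09, 4.88 and 4.11 CPM in iaa32iaa34, with 4.86 ± 1.70 CPM in WT (SD, n = 3). LOV1, a NAC transcription factor known for delaying flowering, averaged 14 ± 2.59 CPM in tmk1 and 5.67 ± 0.917 CPM in iaa32iaa34. The IQ-domain gene iqd21, of a family of calmodulin-binding proteins, averaged 15.0 ± 0.622 CPM in tmk1 and 7.41 ± 0.788 CPM in iaa32iaa34. EMB2729, of the alpha-amylase family, averaged 6.20 ± 0.927 CPM in tmk1 and 2.19 ± 0.34 CPM in iaa32iaa34. LP1, a lipid transfer protein of the epidermis, averaged 164 ± 19.3 CPM in tmk1 and 84.8 ± 17.7 CPM in iaa32iaa34. None of these 5 passed (limma, adjusted p 0.176 to 0.266).

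On the side lower in tmk1, HEI10, a RING-domain protein of meiotic crossing-over, had 0.869, 2.08 and 0.735 CPM in tmk1 and 7.57, 10.2 and 7.71 CPM in iaa32iaa34. WT hooks had 1.36, 1.71 and 0.853 CPM, so iaa32iaa34 stood alone at the high end. The log2 fold change was -2.13 ± 0.26 (limma, adjusted p = 0.0761), as few as 10 reads stood behind a library's value, and HEI10 overlaps 3 other genes in the annotation. ECS1 showed the same order, with 7.21, 11.5 and 8.53 CPM in tmk1, 45.2, 23.0 and 51.3 CPM in iaa32iaa34, and 7.78 ± 2.8 CPM in WT (log2 fold change -1.96 ± 0.30, limma, adjusted p = 0.133). AT4G11320, a papain-family cysteine protease gene with close copies in the genome, averaged 9.56 ± 0.961 CPM in tmk1 and 26.7 ± 6.52 CPM in iaa32iaa34 (limma, adjusted p = 0.133). CYP706A1, a cytochrome P450 gene, averaged 6.32 ± 1.15 CPM in tmk1 and 14 ± 1.37 CPM in iaa32iaa34, with 5.71 ± 0.599 CPM in WT. The precursor gene of the microRNA MIR156f, which overlaps another annotated gene, averaged 4.23 ± 0.905 CPM in tmk1 and 9.60 ± 0.786 CPM in iaa32iaa34, with 3.97 ± 1.36 CPM in WT. For these 5 genes the WT mean was nearer to tmk1 than to iaa32iaa34.

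For a second set lower in tmk1, the WT mean was nearer to iaa32iaa34. RD20, a caleosin induced by drought and abscisic acid, had 14.1, 18.6 and 21.5 CPM in tmk1, 34.2, 40.4 and 51.4 CPM in iaa32iaa34, and 41.3, 50.8 and 45.7 CPM in WT. SULTR3;1, a sulfate transporter, had 28.9, 32.0 and 34.8 CPM in tmk1, 50.3, 65.8 and 76.9 CPM in iaa32iaa34, and 74.0, 74.4 and 81.0 CPM in WT. The tmk1 libraries stood alone at the low end for both genes, with log2 fold changes of -1.17 ± 0.21 and -0.97 ± 0.18 (limma, adjusted p = 0.215 for RD20 and 0.246 for SULTR3;1). MTP11, a manganese transporter, averaged 30.2 ± 4.01 CPM in tmk1 and 59.8 ± 9.38 CPM in iaa32iaa34. FLC, the repressor of flowering, averaged 11.8 ± 2.05 CPM in tmk1 and 24.5 ± 3.77 CPM in iaa32iaa34, and another annotated gene overlaps it. AT1G70270, annotated as a transcription factor gene, averaged 4.1 ± 0.977 CPM in tmk1 and 12.6 ± 2.57 CPM in iaa32iaa34.

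The remaining named genes of this side were MIPS1, which makes inositol phosphate, GASA6, a gibberellin-regulated peptide gene, and BBX30, a small B-box protein gene. MIPS1 had 121, 111 and 140 CPM in tmk1 and 220, 208 and 219 CPM in iaa32iaa34, and GASA6 had 143, 146 and 162 CPM in tmk1 and 264, 273 and 235 CPM in iaa32iaa34. BBX30 had 6.61, 6.05 and 8.01 CPM in tmk1 and 14.3, 21.1 and 39.8 CPM in iaa32iaa34, where replicate 3 was far above the others. None passed (limma, adjusted p 0.246 to 0.266). Of the 15 genes named on each side, the mean of tmk1 was the farther of the mutants from WT for 8 genes higher in tmk1 and 7 genes lower in it, which describes the levels and tests no difference from WT.

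**Figure D3:**
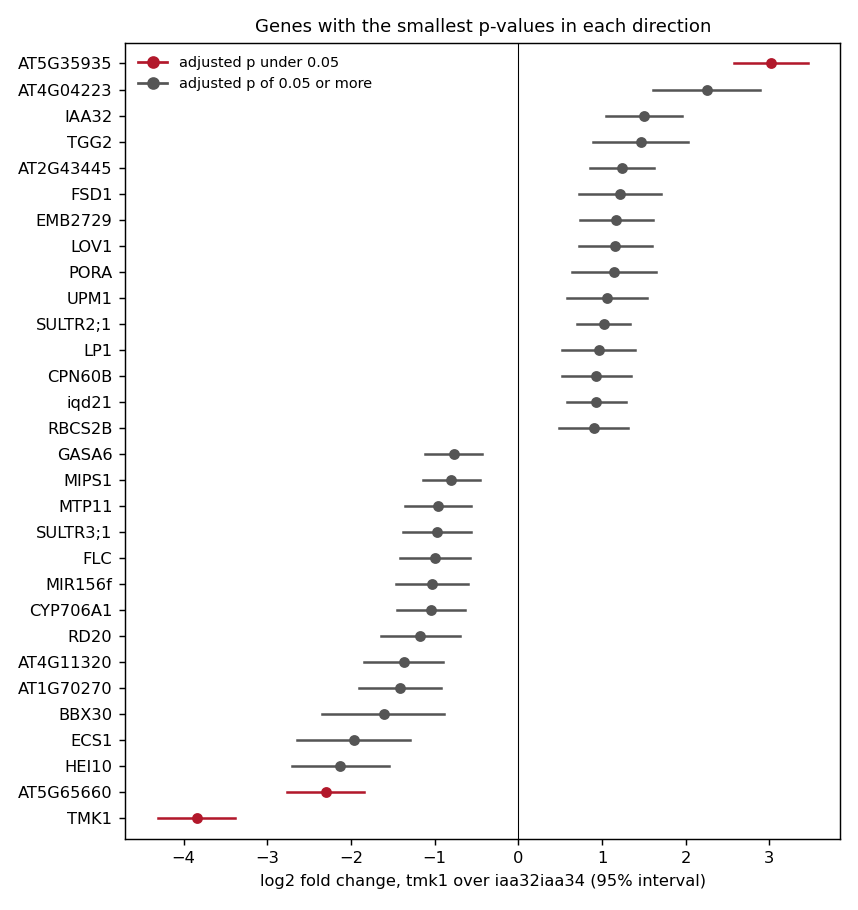
Log2 fold change, tmk1 over iaa32iaa34 (horizontal axis), with its 95% interval, for the 15 named genes on each side. Red marks the 3 genes with an adjusted p under 0.05. The grey genes had adjusted p-values of 0.0761 to 0.266 (limma). Their intervals leave out 0 because they were picked for small p-values.

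A pair of genes outside the rule for naming were chosen after their values were seen. AT2G16660, of the major facilitator superfamily of transporters, had 7.73, 13.7 and 7.72 CPM in tmk1, 2.37, 0.709 and 1.29 CPM in iaa32iaa34, and 1.09, 1.71 and 1.02 CPM in WT. Its log2 fold change was 2.14 ± 0.30 (limma, adjusted p = 0.107). The non-coding RNA AT4G16892 had 0.348, 0.198 and 0.221 CPM in tmk1, close to the 0.221 to 0.298 CPM that 3 reads were worth, and 3.03, 2.84 and 2.23 CPM in iaa32iaa34 (limma, adjusted p = 0.086).

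Before the gene groups, the spread of the libraries has to be given, because it bears on them. Library totals of the 6 libraries were 10077093 to 13601488 reads. In a principal component analysis the first axis took up 38.5% of the variance. The tmk1 libraries scored 36.5, -6.3 and 14.2 on it and the iaa32iaa34 libraries 11.5, -21.1 and -34.9, which overlap. On the second axis (28.0%) iaa32iaa34 replicate 2 stood apart from the other 5 libraries, at 38.1 against -27.1 to 8.8. Libraries of different mutants correlated across genes at r = 0.950 to 0.982, those within tmk1 at 0.964 to 0.988 and those within iaa32iaa34 at 0.964 to 0.971, which describes the libraries only, since genes are not independent replicates. Of 14 root markers only 1 was in the deposited table, and it was tested. The absence of the others from the table does not show that they were not expressed. The marker tested, TIP2;3, a water channel of the vacuole membrane, had 3.13, 14.7 and 3.97 CPM in tmk1 and 2.18, 14.3 and 8.31 CPM in iaa32iaa34. HLS1, the acetyltransferase-like gene without which hooks do not form, was expressed in all 6, at 10.2, 7.84 and 12.3 CPM in tmk1 and 11, 23.8 and 14.7 CPM in iaa32iaa34. In pooled tissue, fewer cells of a type and less RNA per cell cannot be told apart.

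The gene lists hold 595 tested genes, of which TMK1 alone passed. Each list is therefore described by its direction and by its members with an unadjusted p under 0.05, read against the 4.07% of all genes higher in tmk1 and the 3.79% lower. The shares over all genes moved as well when 1 library was left out. Without tmk1 replicates 1, 2 and 3 in turn, the higher share was 3.62%, 4.58% and 2%, and the lower share 2.09%, 4.46% and 2.44%. Without iaa32iaa34 replicates 1, 2 and 3 in turn, the higher share was 6.1%, 3.92% and 2.5%, and the lower share 6.69%, 3.39% and 2.24%. Counts of members from such fits are to be read against these shares. None of these members is called as changed, and the lists were put together with earlier results of these data known.

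Auxin signalling genes lay mostly on the side lower in tmk1. Of the 22 Aux/IAA repressor genes tested apart from IAA32, 17 were lower in tmk1 and 5 higher, with a median log2 fold change of -0.28 beside 0.01 for all genes. IAA14 had 34.7, 32.3 and 34.9 CPM in tmk1 and 62.8, 46.2 and 76.1 CPM in iaa32iaa34, with 46.6 ± 7.26 CPM in WT (SD, n = 3), and its log2 fold change was -0.81 ± 0.19 (limma, adjusted p = 0.359). IAA29, an early target of light and auxin signals, had 9.99, 16.4 and 9.04 CPM in tmk1 and 21.6, 24.4 and 21.2 CPM in iaa32iaa34. IAA19, a repressor of hypocotyl bending and growth, had 196, 331 and 234 CPM in tmk1 and 313, 383 and 490 CPM in iaa32iaa34, where the groups overlapped. IAA6 and IAA13 were the other members with an unadjusted p under 0.05. At that level 5 of 22 (22.7%) were lower and 0 higher, beside 3.79% and 4.07% of all genes. Leaving out any 1 library left 16 to 18 of the 22 lower, the median between -0.34 and -0.19, and 2 to 6 members with an unadjusted p under 0.05 on the lower side.

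Genes of auxin conjugation and of its reversal also had lower levels in tmk1. The 9 tested were 7 GH3 genes, whose enzymes conjugate auxin and related compounds to amino acids, and ILR1 and ILL2, whose enzymes release auxin from such conjugates. All 9 log2 fold changes were below 0, from -0.59 to -0.06 (median -0.24), and 7 to 9 were below 0 when 1 library was left out. Only GH3.5 had an unadjusted p under 0.05. GH3.5 had 139, 172 and 150 CPM in tmk1 and 189, 245 and 261 CPM in iaa32iaa34 (log2 fold change -0.58 ± 0.18, limma, adjusted p = 0.495). Among 10 genes of auxin synthesis, CYP79B3 and CYP79B2, which make the indole-3-acetaldoxime shared with indole glucosinolates, were the members with an unadjusted p under 0.05. Both were lower, or 20% of the list, beside 3.79% of all genes. CYP79B3 had 16.5, 22.0 and 17.7 CPM in tmk1 and 29.7, 69.3 and 56.0 CPM in iaa32iaa34 (log2 fold change -1.34 ± 0.29, limma, adjusted p = 0.295). CYP79B2 had 12.5, 26.7 and 21.7 CPM in tmk1 and 30.2, 37.5 and 40.7 CPM in iaa32iaa34.

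The transport, response factor and SAUR genes showed smaller shifts. Of 25 auxin carriers and their kinases, 19 were lower in tmk1, with a median of -0.12, and 1 (4%) had an unadjusted p under 0.05 on that side. Without iaa32iaa34 replicate 1 that number was 6 (24%), beside 6.69% of all genes in that fit. PILS5, a carrier of the endoplasmic reticulum, had 77.2, 109 and 82.1 CPM in tmk1 and 135, 193 and 207 CPM in iaa32iaa34 (log2 fold change -0.98 ± 0.21, limma, adjusted p = 0.295), and another gene overlaps it in the annotation. PIN6 was on the other side, at 4.61, 4.96 and 4.85 CPM in tmk1 and 3.79, 2.57 and 2.31 CPM in iaa32iaa34. The 14 auxin response factors split into 6 higher and 8 lower (median -0.05), and ARF11 had the smallest p, at 20.3 ± 2.2 CPM in tmk1 and 26.4 ± 2.75 CPM in iaa32iaa34 (limma, adjusted p = 0.628). Of 36 SAUR genes, a family of small auxin-induced transcripts, 13 were higher and 23 lower, with a median of -0.10. These counts depended on single libraries: without iaa32iaa34 replicate 3 they were 34 higher and 2 lower (median 0.19), and without tmk1 replicate 1 they were 21 higher and 15 lower (median 0.04). SAUR71 had 5.65, 2.58 and 4.48 CPM in tmk1 and 1.80, 1.24 and 1.46 CPM in iaa32iaa34. The auxin receptor genes TIR1, AFB1, AFB3, AFB4 and AFB5 and the auxin-binding protein gene ABP1 had no unadjusted p under 0.05.

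Abscisic acid and dehydration genes lay mostly on the side lower in tmk1. Of 32 tested, 22 were lower in tmk1 and 10 higher, with a median log2 fold change of -0.21. At an unadjusted p under 0.05, 10 were lower (31.2%) and 1 higher (3.12%), beside 3.79% and 4.07% of all genes. In 11 the tmk1 libraries all lay below the iaa32iaa34 libraries, as they did in 6.15% of all genes. HAI1, a phosphatase induced by abscisic acid, had 6.95, 9.03 and 9.93 CPM in tmk1 and 15.9, 35.1 and 22.7 CPM in iaa32iaa34 (log2 fold change -1.35 ± 0.27, limma, adjusted p = 0.266). NCED3, which controls abscisic acid synthesis under stress, had 10.3, 5.76 and 8.97 CPM in tmk1 and 20.2, 29.7 and 14.6 CPM in iaa32iaa34 (log2 fold change -1.24 ± 0.28, limma, adjusted p = 0.352). The dehydrin gene RAB18 had 19.8, 3.18 and 17.2 CPM in tmk1 and 29.9, 54.6 and 39.8 CPM in iaa32iaa34, so tmk1 replicate 2 was far below the others of its group.

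RD20, described above, was also among the 10. ERD10, another dehydrin gene, had 245, 205 and 220 CPM in tmk1 and 298, 398 and 296 CPM in iaa32iaa34. ABI2, a phosphatase that restrains abscisic acid signalling, had 27.3, 26.3 and 31.5 CPM in tmk1 and 31.9, 61.7 and 42.2 CPM in iaa32iaa34. LEA4-5, RD29B, RD29A and HAB1 made up the rest of the 10, with log2 fold changes of -1.11, -1.18, -0.47 and -0.39. CYP707A2, which breaks abscisic acid down, was the 1 member higher in tmk1 with an unadjusted p under 0.05, at 4.78, 3.67 and 4.41 CPM in tmk1 and 3.03, 1.24 and 2.14 CPM in iaa32iaa34. Across the list, tmk1 replicate 2 was low and iaa32iaa34 replicate 2 high, with median deviations from the gene means of 0.01, -0.40 and 0.05 in tmk1 and 0.04, 0.48 and 0.14 in iaa32iaa34 on the log2 scale. Without tmk1 replicate 2 the median was -0.06, with 17 lower and 15 higher, and without iaa32iaa34 replicate 2 it was -0.13, with 21 lower. Leaving out any 1 library left 7 to 9 members lower at an unadjusted p under 0.05.

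**Figure D4:**
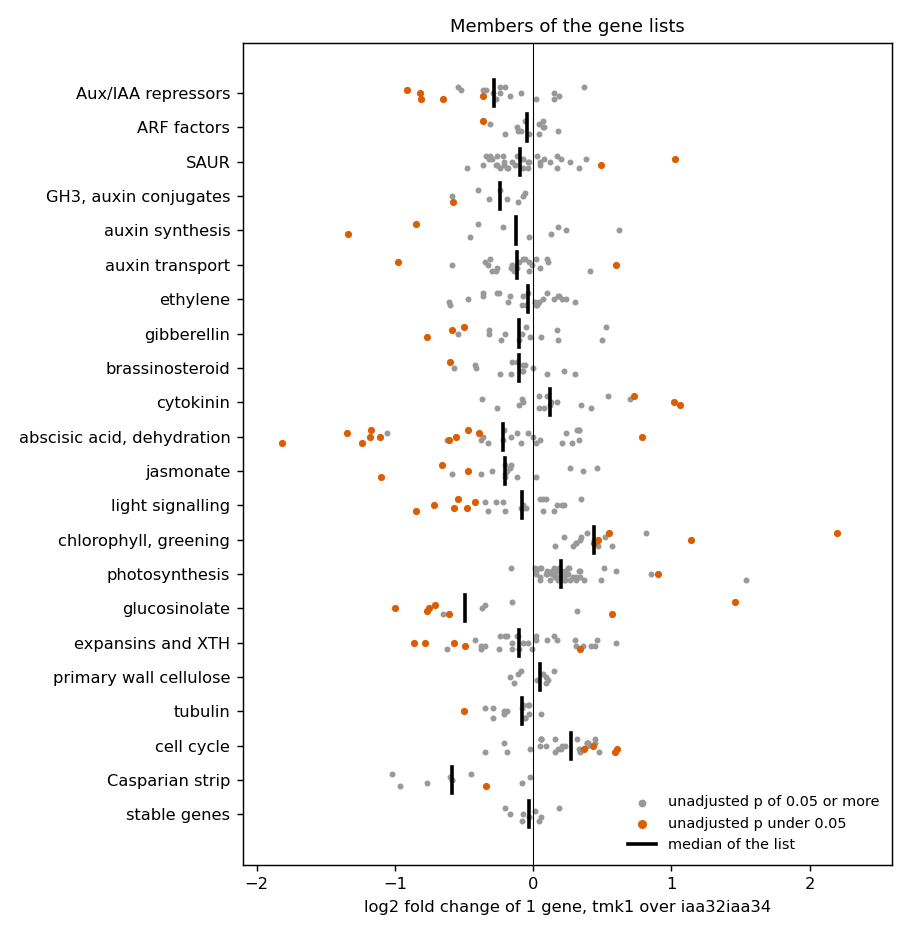
Each point is the log2 fold change of 1 gene, tmk1 over iaa32iaa34 (horizontal axis), in 22 gene lists (vertical axis); orange points have an unadjusted p under 0.05 and black bars are list medians. The chlorophyll list has its median at 0.44 and the abscisic acid list its median at -0.21, with 10 orange points on the lower side.

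Genes of plastid greening lay on the side higher in tmk1, and their values moved with 1 library. All 18 tested genes of chlorophyll synthesis and its regulators were higher in tmk1 (median log2 fold change 0.44). Of these, 5 (27.8%) had an unadjusted p under 0.05, beside 4.07% of all genes. These were PORA, CGA1, FLU, SIG2 and CHLG. CGA1, a GATA factor of chloroplast development, had 30.6, 18.3 and 26.0 CPM in tmk1 and 13.1, 0.798 and 5.74 CPM in iaa32iaa34 (log2 fold change 2.2 ± 0.62, limma, adjusted p = 0.457). FLU, which restrains chlorophyll synthesis in darkness, had 105, 71.3 and 95.2 CPM in tmk1 and 68.1, 62.3 and 52.5 CPM in iaa32iaa34. Of 47 nuclear photosynthesis genes, which mark cotyledon tissue, 46 lay on the side higher in tmk1, but the median was 0.20 and only RBCS2B had an unadjusted p under 0.05. The summed level of the photosynthesis list was 41958, 32563 and 35859 CPM in tmk1 and 41395, 17363 and 36737 CPM in iaa32iaa34, so that iaa32iaa34 replicate 2 alone was low. The chlorophyll list summed to 4777, 4827 and 4547 CPM in tmk1 and 5068, 2294 and 3903 CPM in iaa32iaa34.

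Without iaa32iaa34 replicate 2 the photosynthesis genes turned, with 9 of 47 higher in tmk1, 38 lower and a median of -0.20. In that fit 7 (14.9%) were lower at an unadjusted p under 0.05 and 1 (2.13%) higher, beside 3.39% and 3.92% of all genes. The chlorophyll list then had 11 of 18 higher and a median of 0.20, and 4 members (22.2%) had an unadjusted p under 0.05, all of them higher. The number of such members was 2 (11.1%) without tmk1 replicate 1 and without iaa32iaa34 replicate 3, beside 3.62% and 2.5% of all genes in those fits. It was 10 (55.6%) without iaa32iaa34 replicate 1, beside 6.1% of all genes. The part of leftover cotyledon tissue in these values was not tested.

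**Figure D5:**
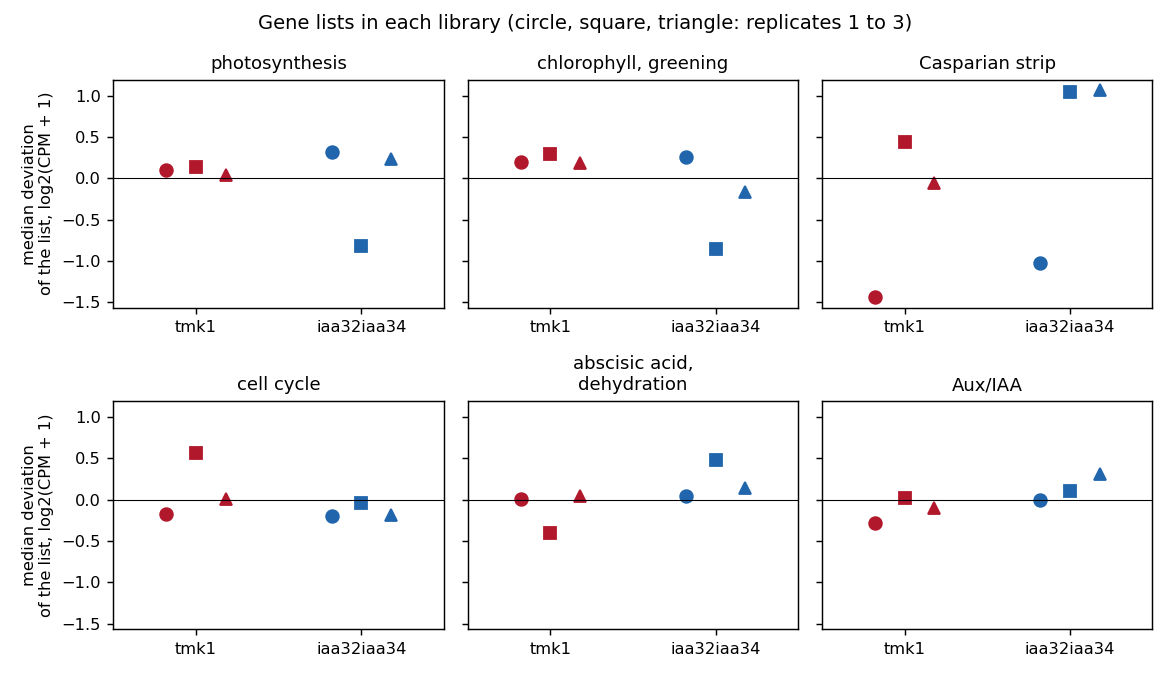
Median deviation of the members of 6 gene lists from their means over the 6 libraries, in log2(CPM + 1) units (vertical axes), in each library of tmk1 (red) and iaa32iaa34 (blue). Replicate 2 of iaa32iaa34 alone is low for photosynthesis, at -0.82; Casparian strip genes vary from -1.44 to 0.44 within tmk1 and from -1.02 to 1.07 within iaa32iaa34.

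Growth-related lists were examined next. Of 34 expansin and XTH genes, whose products loosen the cell wall, 21 were lower in tmk1 and 13 higher (median -0.10). EXPA8 had 163, 224 and 180 CPM in tmk1 and 266, 395 and 380 CPM in iaa32iaa34 (log2 fold change -0.86 ± 0.21, limma, adjusted p = 0.359), and EXPA5, EXPB1 and XTH17 were also lower at an unadjusted p under 0.05. These 4 are 11.8% of the list, beside 3.79% of all genes. The number was 1 (2.94%) without tmk1 replicate 1 or iaa32iaa34 replicate 3, beside 2.09% and 2.24% of all genes in those fits. It was 7 (20.6%) without iaa32iaa34 replicate 1, beside 6.69% of all genes. EXPA4 was higher, at 131, 124 and 151 CPM in tmk1 and 111, 109 and 98.7 CPM in iaa32iaa34. The 10 genes of primary wall cellulose synthesis had a median of 0.05 and ranged from -0.17 to 0.15. Among 6 proton pump and PP2C-D phosphatase genes of acid growth, APD9 (AT5G66080), a phosphatase of the group that SAUR proteins inhibit, had 37.1, 48.2 and 40.4 CPM in tmk1 and 57.6, 81.6 and 60.7 CPM in iaa32iaa34 (log2 fold change -0.65 ± 0.18, limma, adjusted p = 0.455). Tubulin genes were lower in tmk1 in 14 of 15 cases by a small amount (median -0.08). Without tmk1 replicate 1, 10 were lower and 5 higher (median -0.02). TUB8 had the smallest p, at 225 ± 15.5 CPM in tmk1 and 321 ± 59.5 CPM in iaa32iaa34.

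Cell cycle and DNA replication genes were higher in tmk1 in 26 of 30 cases, with a median log2 fold change of 0.28. CYCB1;1, a mitotic cyclin, had 2.78, 4.66 and 3.46 CPM in tmk1 and 1.99, 2.13 and 1.97 CPM in iaa32iaa34 (limma, adjusted p = 0.55), and CYCD3;3, CYCD3;1 and RNR2A also had an unadjusted p under 0.05. These 4 genes, all higher in tmk1, are 13.3% of the list, beside 4.07% of all genes. The list stood high in tmk1 replicate 2, with median deviations of -0.17, 0.57 and 0.01 in tmk1 and -0.20, -0.04 and -0.19 in iaa32iaa34. Without that library 15 genes were higher and 15 lower, the median was -0.01, and no member had an unadjusted p under 0.05.

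The other hormone lists gave 0 to 3 members with an unadjusted p under 0.05. Of 25 ethylene genes, 12 were higher in tmk1 and 13 lower (median -0.04), and none had an unadjusted p under 0.05. Leaving out 1 library gave 6 to 17 higher, with 17 (median 0.13) without iaa32iaa34 replicate 2. HLS1 came nearest, at -0.61 ± 0.28 on the log2 scale (limma, adjusted p = 0.635). Of 17 gibberellin genes, 12 were lower in tmk1, 3 of these 17 with an unadjusted p under 0.05 beside 3.79% of all genes, and after GASA6 the smallest p was that of RGL3, a DELLA repressor, at 7.91, 9.73 and 8.23 CPM in tmk1 and 11.3, 14 and 15.3 CPM in iaa32iaa34. Of 16 brassinosteroid genes, 12 were lower, with DWF4, a hydroxylase of brassinosteroid synthesis, at 67.6, 96.9 and 83.4 CPM in tmk1 and 119, 108 and 148 CPM in iaa32iaa34 (limma, adjusted p = 0.501). Of 19 cytokinin genes, 14 were higher in tmk1, 3 of them (15.8%) with an unadjusted p under 0.05 beside 4.07% of all genes. ARR16, a response regulator that cytokinin induces, had 4.95, 6.15 and 5.29 CPM in tmk1 and 3.5, 1.42 and 1.71 CPM in iaa32iaa34 (limma, adjusted p = 0.359). ARR7, of the same family, had 23.3, 27.6 and 32.6 CPM in tmk1 and 18.4, 7.8 and 15.3 CPM in iaa32iaa34. The groups did not overlap for either gene. Of 17 jasmonate genes, 13 were lower (median -0.20), 3 of these 17 with an unadjusted p under 0.05, but without iaa32iaa34 replicate 2 there were 9 higher and 8 lower (median 0.01). VSP2, a storage protein gene induced by jasmonate, had 1.22, 1.89 and 2.87 CPM in tmk1 and 3.98, 5.05 and 7.03 CPM in iaa32iaa34.

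In light signalling, 15 of 24 genes were lower in tmk1. At an unadjusted p under 0.05 there were 6 (25.0%), all of them lower, beside 3.79% of all genes. They were ATHB4, ATHB2, PAR2, PIL1, PRE6 and PRE1. ATHB4, a homeodomain factor, had 2.69, 6.55 and 4.12 CPM in tmk1 and 9.37, 7.09 and 8.91 CPM in iaa32iaa34 (log2 fold change -0.85 ± 0.27, limma, adjusted p = 0.501). ATHB2 had 10.3, 15.4 and 12.3 CPM in tmk1 and 20.0, 15.9 and 17.9 CPM in iaa32iaa34. Leaving out 1 library left 1 to 7 members lower at an unadjusted p under 0.05. It was 1 (4.17%) each without tmk1 replicate 1 and without iaa32iaa34 replicate 3, beside 2.09% and 2.24% of all genes in those fits. The 7 (29.2%) came without iaa32iaa34 replicate 2, beside 3.39% of all genes.

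Of 32 glucosinolate names listed, 12 were matched to genes in the deposited table, and these 12 were tested. Names without a value included MAM1, MAM3, BCAT4, CYP79F1, CYP79F2 and CYP83A1, so only a part of the list was examined. Among the 12, 9 were lower in tmk1 (median -0.49), and 5 (41.7%) were lower with an unadjusted p under 0.05, beside 3.79% of all genes. These were the synthesis genes CYP83B1, SOT16 and SUR1 and the regulators MYB28 and MYB34, and the other 4 lower genes were MYB122, SOT17, SOT18 and CYP81F2. CYP83B1, which commits indole compounds to glucosinolates, had 32.1, 75.9 and 59.7 CPM in tmk1 and 77.9, 146 and 107 CPM in iaa32iaa34 (log2 fold change -1.0 ± 0.33, limma, adjusted p = 0.508). Of the 3 higher genes, TGG2 and ESM1, which act in glucosinolate breakdown, had an unadjusted p under 0.05 (16.7%), ESM1 at 4.87, 4.27 and 4.56 CPM in tmk1 and 2.56, 2.39 and 3.34 CPM in iaa32iaa34. The myrosinase gene TGG1 was the third, with overlapping groups at 632, 309 and 566 CPM in tmk1 and 465, 419 and 292 CPM in iaa32iaa34. The counts stayed at 3 higher and 9 lower whichever library was left out, and 1 to 6 of the lower genes then had an unadjusted p under 0.05. That number was 1 (8.33%) each without tmk1 replicate 1, tmk1 replicate 3 and iaa32iaa34 replicate 3. Over all genes those fits gave 2.09%, 2.44% and 2.24%. The 6 (50%) came without tmk1 replicate 2, beside 4.46% of all genes. Of 13 sulfur genes only SULTR2;1 and SULTR3;1 had an unadjusted p under 0.05, in opposite directions.

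In the flavonoid list, MYB111, a regulator of flavonol synthesis, had 7.04, 7.64 and 9.26 CPM in tmk1 and 2.84, 1.33 and 4.2 CPM in iaa32iaa34 (log2 fold change 1.31 ± 0.29, limma, adjusted p = 0.316). CHS, the first enzyme of that pathway, had overlapping groups, at 18.3, 107 and 41.1 CPM in tmk1 and 15.4, 2.57 and 26.4 CPM in iaa32iaa34, with replicate 2 the highest in tmk1 and the lowest in iaa32iaa34. Of the 15 flavonoid genes 9 were higher in tmk1 (median 0.17), against 6 without iaa32iaa34 replicate 2 (median -0.15). At an unadjusted p under 0.05, 3 (20%) were higher and 1 (6.67%) lower, beside 4.07% and 3.79% of all genes. Leaving out 1 library gave 1 to 3 higher and 1 or 2 lower at that level. Of 11 iron genes, 7 were higher in tmk1 (median 0.27). At an unadjusted p under 0.05, 3 (27.3%) were higher and 0 lower, beside 4.07% and 3.79% of all genes. Leaving out 1 library gave 2 to 5 higher and 0 or 1 lower at that level, and medians of 0.06 to 0.33. The iron gene YSL2, a transporter of metal chelates, had 10.3, 11.2 and 11.3 CPM in tmk1 and 8.24, 5.94 and 5.83 CPM in iaa32iaa34. ICL, the isocitrate lyase that serves the use of seed oil, had 668, 219 and 722 CPM in tmk1 and 268, 186 and 190 CPM in iaa32iaa34, with 72.5, 89.2 and 62.3 CPM in WT. Its groups overlapped through tmk1 replicate 2 (limma, adjusted p = 0.569), and the other 14 seed reserve genes had no unadjusted p under 0.05.

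Lists of cell type markers were read in the same way. All 10 Casparian strip and endodermis genes were lower in tmk1 (median -0.59), yet the list varied more within the mutants than between them, with median deviations of -1.44, 0.44 and -0.05 in tmk1 and -1.02, 1.05 and 1.07 in iaa32iaa34. Its summed level was 201, 383 and 314 CPM in tmk1 and 255, 548 and 566 CPM in iaa32iaa34, the median lay between -1.36 and -0.07 as libraries were left out, and SHR alone had an unadjusted p under 0.05. Without iaa32iaa34 replicate 1, 7 of the 10 (70%) had such a p, all lower, beside 6.69% of all genes in that fit. Without any other single library 0 or 1 had such a p. Of 15 xylem and secondary wall genes, 13 were lower (median -0.15) and none had an unadjusted p under 0.05. Of 15 epidermis and cuticle genes, 11 were lower, and LP1 alone had such a p, on the higher side. Without tmk1 replicate 1, 8 of the 15 were lower and 7 higher (median -0.01). Of 9 stomatal lineage genes, 7 were higher, with POLAR (AT4G31805) at 3.34 ± 0.808 CPM in tmk1 and 2.25 ± 0.533 CPM in iaa32iaa34. Of 6 shoot meristem genes, KNAT6 had 25.0 ± 2.42 CPM in tmk1 and 34.5 ± 5.96 CPM in iaa32iaa34 (limma, adjusted p = 0.6). The 9 genes taken as stable references had a median of -0.03, with YLS8 at 86.7 ± 5.01 CPM in tmk1 and 98.0 ± 15.3 CPM in iaa32iaa34. The part of these markers in the other lists was not tested.

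The last lists were those of stress and the clock. Of 8 salicylate and defence genes, 6 were higher in tmk1, and CBP60G, a regulator of salicylate synthesis, had overlapping groups at 23.4, 4.56 and 15.7 CPM in tmk1 and 7.2, 9.31 and 2.66 CPM in iaa32iaa34. Of 9 heat shock genes, 7 were higher in tmk1, with HSP22.0 at 3.39 ± 0.569 CPM in tmk1 and 1.67 ± 0.322 CPM in iaa32iaa34 (limma, adjusted p = 0.458). Of 13 clock genes, 10 were higher (median 0.23) and 0 had an unadjusted p under 0.05. Without tmk1 replicate 1 there were 6 higher and 7 lower (median 0.00). The members with an unadjusted p under 0.05 depended on single libraries. Without tmk1 replicate 2 there were 6 (46.2%) higher and 1 (7.69%) lower, beside 4.58% and 4.46% of all genes. Without iaa32iaa34 replicate 1 there were 3 (23.1%) higher and 0 lower, beside 6.1% and 6.69%. Without iaa32iaa34 replicate 2 there were 0 higher and 3 (23.1%) lower, beside 3.92% and 3.39%. PRR3 had the smallest p, at 23.2 ± 2.22 CPM in tmk1 and 16.8 ± 4.70 CPM in iaa32iaa34 (limma, adjusted p = 0.639).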

How the data were processed

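Hook RNA (1 µg for each library) was sequenced after a strand-specific preparation, per the labels' protocols. The authors deposited 1 table of CPM values for 16383 genes. The submitters' processing notes name HISAT and HTSeq. Neither versions nor the annotation, genome build or use of strand is given in the sources used here, so no coordinates or sequences are printed. The CPM values were whole multiples of 1 read to within 0.01 of a read, which gave the library totals, 200 to 272 reads for a gene of median level, and a 3-read floor of 0.221 to 0.298 CPM.

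Values of the 6 mutant libraries, as log2(CPM + 1), were fitted with limma 3.58.1 (R 4.3.3) by lmFit, followed by eBayes with trend. The pseudocount of 1 makes fold changes of low genes smaller than they are. The filter on low values, at least 1 CPM in 3 or more of the 6 libraries, removed 94 genes. Adjustment of p-values was by Benjamini-Hochberg over the 16289 genes left. Since 3 libraries against 3 allow no exact permutation p below 0.1, none was used. The code was checked on simulated data. Symbols, overlapping genes and neighbours were taken from TAIR10.1, where 16240 identifiers matched and 7212 carried a symbol. Besides the genes marked above, CPN60B, UPM1, LOV1, EMB2729, GASA6, YSL2 and POLAR each overlap another annotated gene there. Part of their reads may belong to that gene. Overlaps were looked up only for the genes named by rule and for AT2G16660 and AT4G16892, and not for other list members.

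Members and lists were chosen with earlier results of these data known. Of 795 names in 37 lists, 777 matched, giving 776 genes, of which 595 were tested. Of the others, 178 were not in the deposited table and 3 were removed by the filter on low values. A gene missing from the table could not be examined, which does not show that it was not expressed. The table held 88.6% to 90.6% of the total reads of each library. Named were the targeted genes, up to 12 genes each way with a symbol and 3 without (past the threshold by size, then by smallest p, with groups apart and a mean CPM of at least 3), and for each list up to 4 members past the threshold or else the member of smallest p. Other list members, most with an unadjusted p under 0.05, were named after their values were seen.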

Additional observations from a re-analysis of the deposited data

How the results depend on the processing

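The count of genes that passed was 3 at first. It was 3 or 4 with a pseudocount of 0.25 or 4 and with no filter or a filter of 5 CPM. The count was also 3 or 4 with median-of-ratios or TMM scaling and without the mean-variance trend. It was 9 (5 higher in tmk1 and 4 lower) when all 9 libraries shared the estimate of spread. It was 45 (30 higher and 15 lower) with array weights, where limma warned that the weights had not converged and tmk1 replicate 3 took a weight of 11.2, against 0.501 to 0.78 for the others. Leaving out 1 library gave 2 to 6 genes, with 1 to 3 higher and 1 to 4 lower: 6 without tmk1 replicate 2, 5 without iaa32iaa34 replicate 2 and 2 without iaa32iaa34 replicate 3. TMK1, AT5G35935 and AT5G65660 were among the calls each time, except AT5G65660 without iaa32iaa34 replicate 3. The cause of these moves was not tested.

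In a fit with a replicate block, 3 genes passed (1 higher and 2 lower, the same genes) and 1660 had an unadjusted p under 0.05, beside 1281 without it. Deviations of same-numbered libraries correlated at 0.37, -0.14 and 0.12. The same-numbered library was the best match for tmk1 replicates 1 and 3, while tmk1 replicate 2 correlated best with iaa32iaa34 replicate 3, at 0.37. Deviations from the mean of each mutant are bound to each other, so they cannot settle whether the libraries were paired. The main fit took them as unpaired.

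Of 60 named genes, 35 passed under no alternative, and 916 of 953 combinations of gene and alternative stayed on the same side of the threshold. TIP2;3 alone turned its direction, between -0.80 and 0.33 as libraries were left out. Of 37 list medians, 24 kept their sign throughout. The median of all genes was 0.01 or 0.02 under both other scalings. The edgeR and DESeq2 fits planned on reads recovered from the CPM steps were not run, and the values were kept as CPM. Depth limits genes near 1 CPM most.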
